A study of Drosophila melanogaster with 10 samples.

Results

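The PDGF and VEGF receptor pathway of Drosophila was followed through its 3 ligand genes, Pvf1, Pvf2 and Pvf3, and its receptor gene, Pvr, in cells and glands exposed to RNAi against the linker histone H1. Members were all probe sets whose platform gene symbol is 1 of these 4, and no probe set carried such a symbol together with another. This gave 7 of the 18769 probe sets tested and 4 of 11982 named genes. Pvf1 (1631638_at), Pvf2 (1630642_at) and Pvr (1638143_a_at) each had 1 probe set, and Pvf3 had 4 (1632817_at, 1637519_at, 1632773_a_at and 1641276_at). The family was selected on measured values, namely the log2 intensities with and without H1 RNAi in Kc cells and glands, with the large decrease of Pvf1 in Kc cells already known. The H1 effects of its members in both systems are therefore described without a test, as are their levels in the controls, which form part of the same contrasts. Tests are given only for other genes.

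The Pvf proteins are secreted growth factors, and Pvr is the receptor tyrosine kinase they bind. On binding, the receptor passes its signal through adaptor proteins to the RAS and MAPK cascade, to PI3K and to RAC. In the embryo this signal guides migrating haemocytes, the blood cells of the fly, and keeps them alive. It also steers border cells in the ovary and closes the thorax epithelium.

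The data were Affymetrix expression arrays of 10 total RNA samples in 4 groups. Kc cells, a haemocyte-like line derived from embryos, received dsRNA against GFP (2 arrays) or against H1 (2 arrays). Per the sample labels this was done on days 0, 2 and 4, each time with 1 hour in serum-free medium, and RNA was prepared on day 6, while the series record speaks of a single treatment. Salivary glands came from flies with an RNAi construct against nau (Nautilus, 3 arrays) or against H1 (3 arrays), each under the ubiquitous driver Tub-Gal4, crossed at 18 °C and kept at 29 °C from the embryo on for the knockdown. All gland groups therefore carried the driver and an RNAi construct, and the driver is not restricted to the gland. Kc cells were cultured above 18 °C and below 29 °C, so temperature differed between the systems as well. Whether arrays of a group stem from different cultures or animals is not stated in the labels. The p-values therefore reflect only the array-to-array spread, which may be technical in nature. Each probe set had 1 spread estimate shared by all 4 groups. The pooled SD was 0.114 and 0.117 in the GFP and H1 groups of Kc cells. It was 0.238 and 0.263 in the glands labelled nau and H1 RNAi. Standard errors and p-values in Kc cells thus draw on the larger gland spread, and those in glands on the smaller Kc spread. Signals are log2 of the deposited intensity throughout.

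The targets of the RNAi were examined before the members. The His1 genes had no named probe set here, and the extent of H1 depletion was not measured. The nau signal was 6.02, 5.54 and 5.50 in the glands labelled nau RNAi and 3.53, 3.53 and 3.36 in those labelled H1 RNAi. It was thus higher under the label of its own RNAi. Whether nau RNA was depleted there was not tested, so every gland direction refers to the labels. The salivary gland markers Sgs3 and Sgs4, which encode glue proteins, and sage, a gland transcription factor gene, had means of 14.21, 14.28 and 12.36 in the glands labelled nau RNAi and 8.81, 9.32 and 9.91 in those labelled H1 RNAi. Of 11 measured markers of this tissue 10 fell and none rose (limma adjusted p under 0.05), where 23.6% of named genes were called in each direction. Their median log2 difference was -1.32, and their summed intensity was 128700 to 132600 under the nau label and 38100 to 45690 under the H1 label. Fat body markers were high in glands as well, with Lsp2 at 14.06 and 14.08 in the glands labelled nau and H1 RNAi. Of 5 measured fat body markers 3 rose and 1 fell under the H1 label at the same threshold, and Lsp2 did not pass. Apoltp (1.53), Fbp2 (0.38) and apolpp (0.22) rose and Fbp1 (-0.58) fell. Arrays of a group correlated with r between 0.9886 and 0.9983. The 18S rRNA control signal was lower in the H1 arrays of Kc cells (4.08 to 4.65) than in the GFP arrays (5.99 to 7.53). In glands the 3′ minus 5′ control signal of GAPDH, which grows with RNA degradation, was 2.45 to 2.63 in the arrays labelled H1 RNAi and 2.09 to 2.18 in those labelled nau RNAi. The part of these shifts, the fall of gland markers included, in the results below was not tested.

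Pvf1 encodes the ligand for which the 2 systems differed in direction. In Kc cells its signal was 6.57 and 6.78 in the GFP arrays and 4.28 and 4.81 in the H1 arrays. Both H1 arrays lay below both GFP arrays, with a gap of 1.76 between the nearest ones. The means were 6.68 ± 0.15 (SD, n = 2) and 4.54 ± 0.38 (n = 2), a log2 difference of -2.14 (standard error 0.20) or 4.40-fold. In glands the order was the reverse. The signal was 8.19, 7.84 and 8.05 in the arrays labelled nau RNAi and 8.68, 8.96 and 9.12 in those labelled H1 RNAi. All 3 H1 arrays lay above all 3 nau arrays, with a gap of 0.49. The means were 8.02 ± 0.18 (n = 3) and 8.92 ± 0.22 (n = 3), a log2 difference of 0.90 (standard error 0.17) or 1.86-fold. With the control means of both systems 1.35 apart on the log2 scale, the H1 means lay 4.38 apart, which is 20.8-fold. Pvf1 was over the 95th percentile of the Tag control probe sets (3.55), a measure of background, on all 10 arrays. Leaving out 1 array at a time kept the Kc difference between -2.40 and -1.87 and the gland difference between 0.80 and 1.01.

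Pvf2 encodes a second ligand, whose signal differed far more between the systems than with RNAi. It was 9.31 and 9.38 in the GFP arrays of Kc cells and 9.03 and 9.26 in the H1 arrays. The Kc groups did not overlap but came within 0.05 of each other, and the log2 difference was -0.20 (standard error 0.20). In glands the values were 7.14, 7.43 and 7.77 under the nau label and 7.42, 7.14 and 7.53 under the H1 label. The gland groups overlapped, with a log2 difference of -0.08 (standard error 0.16).

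Pvf3, the third ligand gene, gave little signal. Of its 40 values (4 probe sets on 10 arrays) 12 exceeded the background level of 3.55, and the range was 2.71 to 4.47. The probe set of highest mean, 1632817_at, read 3.82 and 4.06 in GFP arrays and 3.86 and 3.68 in H1 arrays of Kc cells, which overlapped. In glands it read 4.47, 3.91 and 4.44 under the nau label and 3.12, 3.46 and 3.23 under the H1 label, with no overlap. The log2 gland difference was -0.999 (standard error 0.16), and the mean under the H1 label, 3.27, lay within background. The other 3 probe sets differed by -0.28 to -0.13 in glands, so the probe sets of the gene did not show the same size of difference. Probe set 1641276_at read 3.12, 3.05 and 3.14 under the nau label and 2.88, 2.80 and 2.78 under the H1 label, all within background. In Kc cells the log2 differences of the 4 probe sets ran from -0.22 to -0.01.

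Pvr, the common receptor of the 3 ligands, was nearly the same with and without H1 RNAi. Its signal was 11.91 and 11.84 in the GFP arrays and 11.85 and 11.88 in the H1 arrays of Kc cells. In glands it was 9.80, 9.80 and 9.82 under the nau label and 9.79, 9.88 and 9.92 under the H1 label. The groups overlapped in both systems. The log2 differences were -0.01 (standard error 0.09) in Kc cells and 0.06 (standard error 0.07) in glands, while the systems lay 1.92 apart at their nearest arrays.

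Over all probe sets, limma at an adjusted p under 0.05 called 4.11% with H1 RNAi in Kc cells, 40.7% in glands and 51.2% between the controls of both systems. No such call is used for the members. The Kc and gland shares are not directly comparable, since both rest on the shared spread. Arrays of the compared groups did not overlap for 54.9% of all probe sets in Kc cells and 49% in glands. The pattern of Pvf1, with every H1 array lower in Kc cells and every H1 array higher in glands, was found for 1283 of 18769 probe sets (6.84%).

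**Figure D1:**
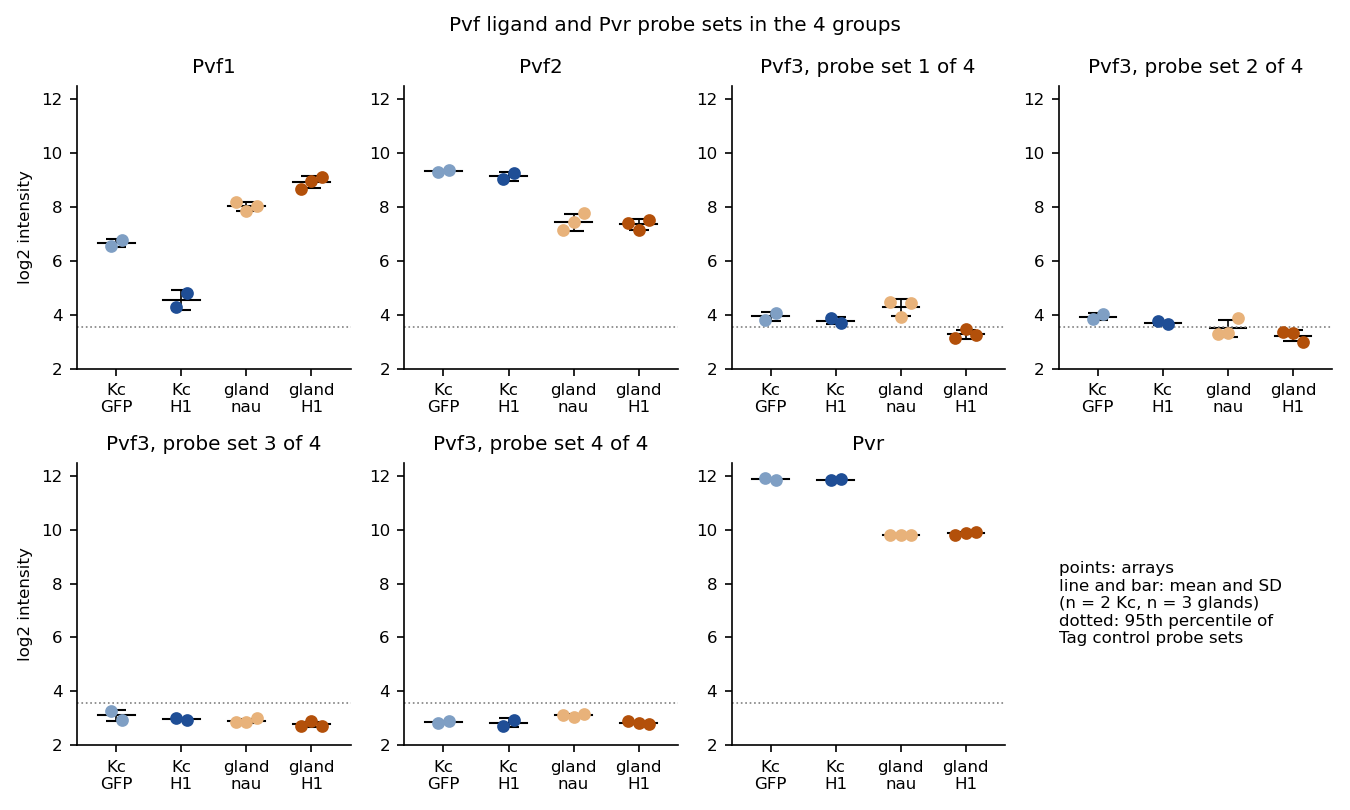
Log2 intensity of the 7 Pvf and Pvr probe sets by group, with a point per array, the mean as a line, the SD as a bar (n = 2 for Kc groups, n = 3 for gland groups) and the Tag control level of 3.55 dotted. Pvf1 is lower with H1 RNAi in Kc cells and higher in glands, Pvf2 and Pvr differ between the systems, and Pvf3 stays near the dotted line.

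The levels of the members in the control groups, a haemocyte-like cell line and a secretory tissue, are given as a description, since these arrays served in the choice of the genes. Tissue, RNAi target, rearing, temperature, RNA control signals and possibly normalization differ together here and cannot be told apart. The 3′ minus 5′ signal of GAPDH was 0.82 to 0.84 in the Kc GFP arrays and 2.09 to 2.18 in those labelled nau RNAi. The 18S rRNA signal was 5.99 to 7.53 and 11.50 to 11.76 in the same order. The part of these shifts in the differences between the systems was not tested. Pvr was 4.19-fold lower in the glands labelled nau RNAi than in GFP-treated Kc cells (log2 difference -2.07, standard error 0.08), and Pvf2 was 3.73-fold lower (-1.90, standard error 0.18). Pvf1 was 2.54-fold higher in glands (1.35, standard error 0.18). For each of these 3 genes the control arrays of the systems did not overlap, which held for 68.1% of all probe sets. For the leading Pvf3 probe set, whose control arrays overlapped, the log2 difference was 0.33 (standard error 0.18), and 0.51 without array b labelled nau RNAi.

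The order of the 4 groups therefore differed between the members. Pvf1 ranked, from low to high, Kc H1, Kc GFP, gland nau and gland H1, and no neighbours in this order overlapped. For Pvf2 and Pvr, both gland groups lay below both Kc groups, and the gland groups overlapped. The Kc groups overlapped for Pvr, and for Pvf2 their gap of 0.05 was smaller than the range of the H1 arrays (0.24). No order is given for Pvf3, whose values lie close to background.

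Genes that act with or beside the receptor were taken from 6 lists, of which 54 of 73 genes had a probe set of 1 symbol. Genes without one, such as Ras85D, Raf, rl, mbc and Rac1, are not analysed here. PVRAP, named as an adaptor of Pvr and added after the files were seen, stayed at 2.57 to 3.13 on all arrays, within background.

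In Kc cells 1 of the 54 pathway genes rose and 2 fell (limma adjusted p under 0.05). This share was near that of all named genes, of which 5.04% were called (3.46% higher, 1.59% lower). With Kc cells fitted alone 8 genes were called, in a fit that also called more of all probe sets. Of the 54 genes 9 had an unadjusted p under 0.05, a level for which no share of all genes is given here. The median log2 difference was -0.02, and that of all probe sets -0.03. The adaptor gene drk, the fly GRB2, fell by 0.43 (limma adjusted p = 0.0399), and grk, an Egfr ligand of the oocyte, fell by 0.67 (limma adjusted p = 0.0326). Both calls were lost without any 1 of the 4 Kc arrays (adjusted p up to 0.324 and 0.273), and that of drk also without array b labelled nau RNAi and arrays b and c labelled H1 RNAi. The receptor gene tor, read at 2.89 and 3.56 in the GFP and H1 means, rose by 0.67 from background level (limma adjusted p = 0.00271). None of 4 RAC and SRC effectors, 7 PI3K and TOR genes or 9 feedback inhibitors and outputs passed in limma, with 1 gene in each list at an unadjusted p under 0.05. Among the feedback genes, sty read 11.70 and 11.75, Mkp3 8.88 and 8.76, and kek1 8.61 and 9.28 in the GFP and H1 means.

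In glands 14 of the 54 genes rose and 15 fell, where 47.2% of named genes were called, 23.6% in each direction. The median log2 difference was 0.12 against -0.08 for all probe sets. Among 9 feedback inhibitors and outputs of receptor kinases 4 rose and 1 fell. The transmembrane Egfr inhibitor gene kek1 rose from 3.85 ± 0.35 to 6.29 ± 0.17 (SD, n = 3 each; log2 difference 2.44). The MAPK phosphatase gene Mkp3 rose by 0.82, PTP-ER, another phosphatase gene of the cascade, by 0.45 and the sprouty gene sty by 0.45, while the ubiquitin ligase gene Cbl, which removes active receptors, fell by 0.79. For the MAPK outputs aos (0.60), edl (0.32) and aop (0.36) the adjusted p was 0.0572, 0.07 and 0.0543.

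Among genes of other ligands and receptors, the shares called in glands were not far above or lay below the 47.2% of all named genes. Of 10 ligand genes 3 rose and none fell, namely trk (2.21), which encodes the ligand of Torso, grk (1.85) and the Egfr ligand gene Krn (0.49). Of 16 receptor kinase genes 3 rose and 5 fell. The receptor gene Tie fell from 9.79 ± 0.08 to 7.50 ± 0.25 (SD, n = 3 each; log2 difference -2.29). The FGF receptor gene htl fell by 2.05, and of the Ryk family of WNT receptors Drl-2 fell by 1.45 and dnt by 1.09. Ddr fell by 0.47, while drl (1.58), sev (1.09) and Ret (0.33, within background) rose. The drl signal under the H1 label was 7.56, 4.90 and 5.66, and without array a, the highest, the log2 difference was 0.82. Array a was also the highest of this group for Alk, Ilp2 and Ror (4.93, 5.53 and 5.14, with the other arrays at 3.06 to 3.84). Of the tracheal, epidermal and imaginal markers it was highest for grh, serp, esg, verm, uif, Dll and nub. It was not highest for pio, Cpr49Ae, bab2 and vg.

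Within the cell, 3 of 8 RAS and MAPK genes fell and 1 rose in glands, where 23.6% of named genes were called in each direction. The adaptor gene dos rose by 1.17, whereas the phosphatase gene csw (-0.95), drk (-0.62) and the MEK gene Dsor1 (-0.42) fell. Of 7 PI3K and TOR genes 5 fell and 2 rose. The decreases were those of foxo (-1.11), which is inhibited by this branch, Akt (-0.67), raptor (-0.48), Pdk1 (-0.46) and Tsc1 (-0.26). The increases were those of gig (0.32), the partner of Tsc1, and S6k (0.27). Of 4 RAC and SRC effectors Ced-12, the fly ELMO, rose by 0.52 and Vav fell by 0.51. The 29 calls had adjusted p up to 0.0448, and 21 of them held when any 1 of the 10 arrays was left out. The other 8 were Ced-12, Tsc1, gig, raptor, S6k, sty, Ret and drl, whose highest adjusted p lay between 0.0638 (raptor, without array c labelled nau RNAi) and 0.128 (drl).

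Haemocytes carry Pvr and respond to the ligands, so their markers are given beside these results. Of 18 markers 2 fell in Kc cells, He and eater, and none rose, where 5.04% of named genes were called. The summed intensity of the list was 14330 to 14490 in the GFP arrays and 15130 to 15250 in the H1 arrays. In glands 12 of the 18 rose and 2 fell, where 23.6% of named genes were called in each direction and 10 of 11 salivary gland markers fell. The summed intensity was 8279 to 9696 under the nau label and 12100 to 12630 under the H1 label. The largest gland increases of the list were those of Ppn (3.29) and He (3.14), and eater rose as well. PPO1 (2.78) and PPO2 (1.23) were also higher under the H1 label, while Pxn (-1.15) and Tig (-0.31) fell. The crystal cell factor lz lay within background in all 4 groups, and gcm in all except the glands labelled H1 RNAi. Fat body markers summed to 50780 to 54030 and 57300 to 59370 in the same order. In bulk tissue, fewer cells of a type and less RNA per cell cannot be told apart, and the part of other cell types in the gland signals of Pvf1 was not tested.

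The difference between the effects in both systems, gland minus Kc, was tested for the pathway genes. It passed for 17 of 54, 8 higher and 9 lower, where 32% of named genes passed (17.2% higher, 14.7% lower). The largest were grk (2.52, standard error 0.18, limma adjusted p = 1.58e-05), trk (2.24) and kek1 (1.77) on the higher side and Tie (-2.23), htl (-1.90) and Drl-2 (-1.21) on the lower. In Kc cells htl lay within background in both groups (2.74 and 2.59), Drl-2 at its edge (3.59 and 3.35) and Tie not far above it (3.97 and 3.92), so these 3 genes had little or no room to fall there. Of these 6 genes, Drl-2 lost its call without Kc GFP array b or either Kc H1 array (adjusted p up to 0.0935). Without Kc GFP array b, 10 of the 54 genes were called.

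**Figure D2:**
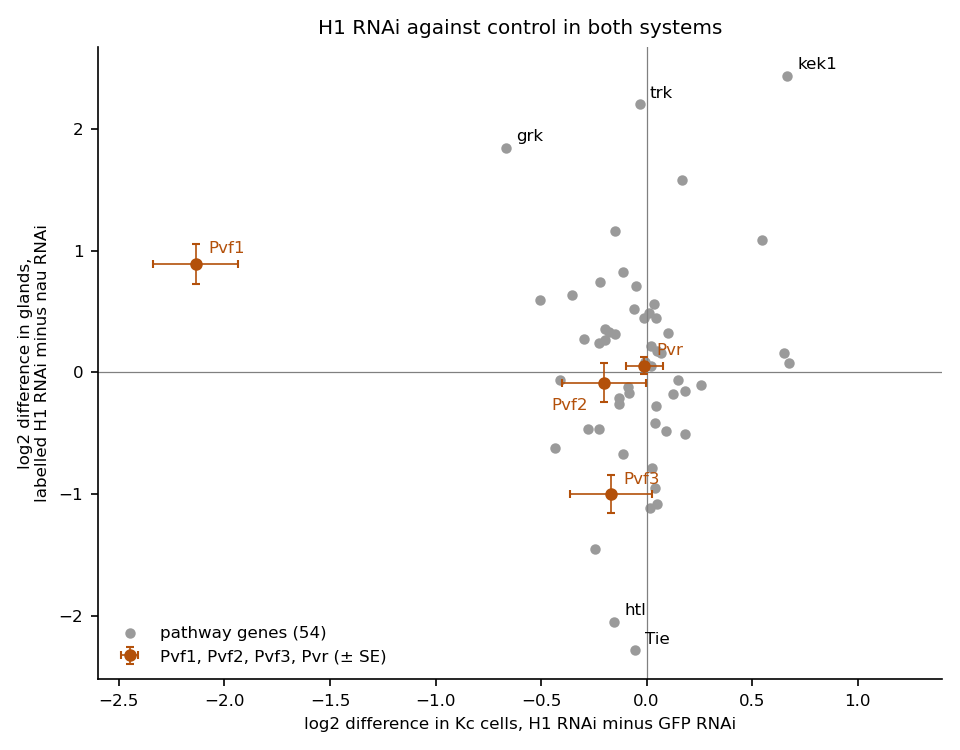
Log2 difference with H1 RNAi in Kc cells (horizontal) and glands (vertical), with grey points for the 54 pathway genes and orange points with standard errors for Pvf1, Pvf2, Pvf3 (leading probe set) and Pvr. Pvf1 lies at -2.14 and 0.90, left of every pathway gene plotted, and Pvr and Pvf2 lie near the origin.

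Between the control groups, the same lists were compared beside the lower Pvr signal of glands. Of 54 genes 11 were higher and 29 lower in the glands labelled nau RNAi, against 24.1% and 35.4% of named genes (59.5% in all). Of 9 feedback inhibitors and outputs 7 were lower and none higher, with a median log2 difference of -2.40 against -0.01 for all probe sets. These were aos (-5.55), kek1 (-4.76), sty (-3.70), Mkp3 (-2.67), edl (-2.40), the ETS-domain gene aop (-1.47) and Cbl (-1.20). Among the ligand genes trk (-3.51), bnl (-3.44), grk (-3.35), spi (-3.08) and pyr (-1.55) were lower and Krn (0.55) was higher, with bnl and pyr within background in these glands. Among the receptor kinase genes Tie (5.82), htl (4.02, from background in Kc cells), Egfr (3.21), Drl-2 (1.67) and Ddr (0.32) were higher and 7 were lower, among them Ror (-2.63, to background in these glands) and otk (-1.81). Of the PI3K branch Akt (2.30), Pdk1 (2.24) and foxo (0.65) were higher and raptor (-1.96) and S6k (-0.68) lower. For RAC effectors Ced-12 (-2.64), Pak (-0.54) and Vav (-0.49) were lower. Of 8 RAS and MAPK genes 5 were lower, among them Shc (-2.02) and dos (-1.90), and csw (2.47) and drk (0.77) were higher. Of these 40 calls 34 held when any 1 array was left out, and those of cnk, Vav, foxo, tor, Ret and Ddr did not (highest adjusted p from 0.0584 to 0.216).

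Since Pvf2 and Pvf3 are near neighbours in the RefSeq order of genes (assembly Release 6, used for order only), with 2 long noncoding RNA genes between them, the genes next to each member were examined. Among the 18 measured neighbours that are no members, 2 rose and 1 fell in Kc cells (5.04% of named genes called), and 2 rose and 7 fell in glands (47.2%). The genes flanking Pvf1 did not share its Kc difference. CG7101 read 7.91 and 7.97 in GFP arrays and 7.84 and 7.76 in H1 arrays, and htk, on the other side, read 9.37 and 9.38 in GFP and 9.71 and 9.57 in H1 arrays. Of the 6 genes around Pvf1, CG7322 fell in Kc cells (-0.52, limma adjusted p = 0.027). In glands htk (-0.47) and CG7322 (-0.59) fell, while Pvf1 was higher.

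Around Pvf2 and Pvf3, gland decreases were seen on both sides, but not for every neighbour. Nuf2 was at 0.64 (limma adjusted p = 0.0668) and CG4502 at -0.02 in glands, and neither passed. CG4496, the next measured gene beyond Pvf3, read 7.55, 7.51 and 8.35 under the nau label and 6.06, 5.86 and 6.17 under the H1 label, a decrease of 1.77 on the log2 scale. CG4497 fell by 0.60, and on the other side of Pvf2, Ugt307A1 fell by 0.60 within background and Sem1 by 0.34. In Kc cells none of the 6 measured neighbours of the pair passed. Next to Pvr, Snx6 was -0.32 in Kc cells (adjusted p = 0.199) and fell by 0.29 in glands. Of the farther genes, CG8086 rose in both systems by 1.07, CG8349 rose in Kc cells (0.65, limma adjusted p = 0.0445) and CG8292 rose in glands (0.40, limma adjusted p = 0.0487).

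**Figure D3:**
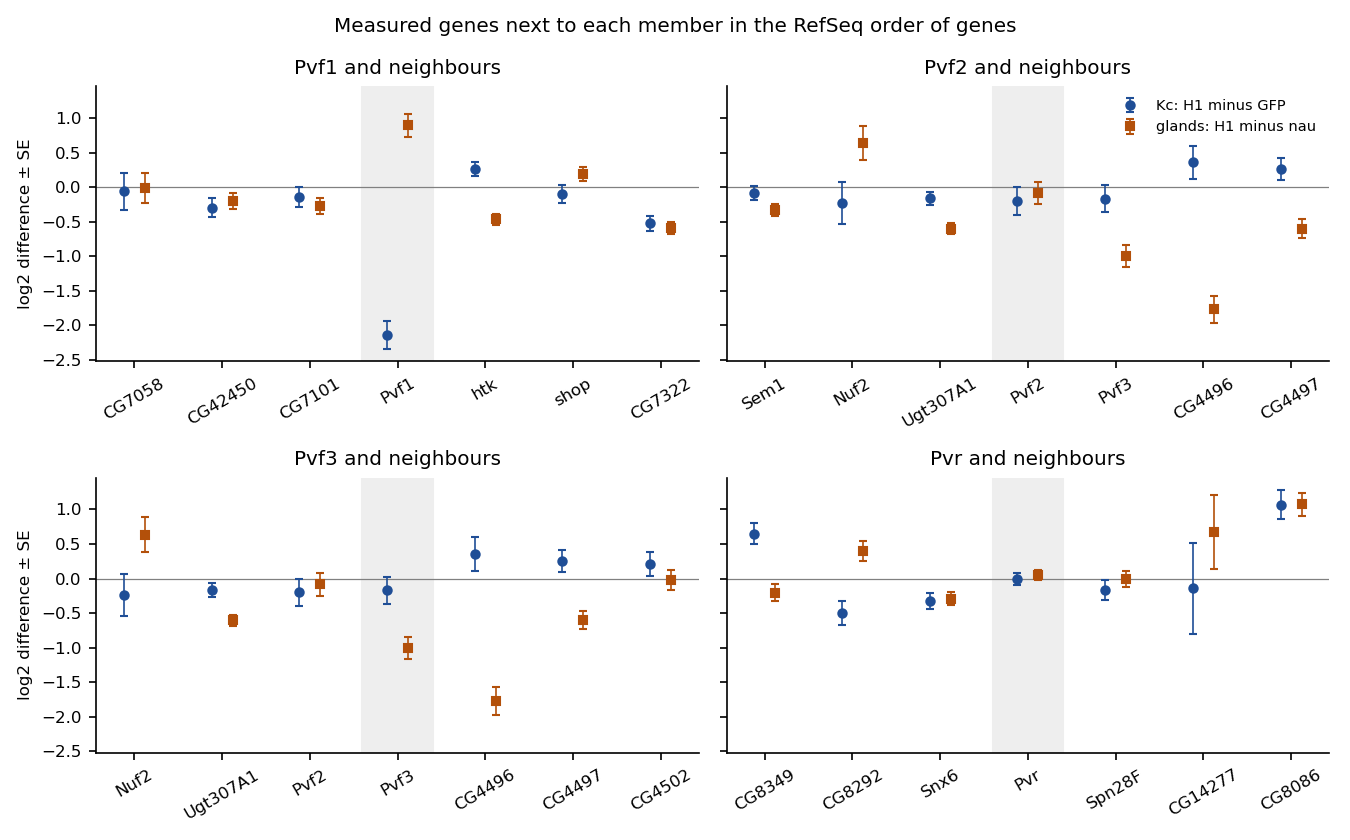
Log2 difference with H1 RNAi, with standard error, for each member (shaded) and the 3 measured genes on each side in RefSeq order, in Kc cells (circles) and glands (squares). Pvf1 has the lowest Kc value (-2.14), and CG4496 beyond Pvf3 has the lowest gland value (-1.77).

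Genes whose signal followed a member over the 10 arrays were ranked by Pearson r among genes whose group means spanned at least 0.5 times the span of that member. All arrays share the large difference between cells and glands, so these values are descriptions only. For Pvf1 the closest of 2559 candidates were CG42846 (r = 0.989), the chitinase-like growth factor gene Idgf2 (r = 0.966) and NimB5 of the Nimrod family (r = 0.965). CG42846 read 10.85 and 10.93 in GFP arrays and 9.53 and 9.55 in H1 arrays of Kc cells. Idgf2 was lower in Kc cells (-1.20) and higher in glands (1.36), as Pvf1 was, while NimB5 was lower in Kc cells (-2.43) with a gland difference of 0.01. For Pvf2 the closest were LPCAT (r = 0.996), CG18476 (r = 0.993) and CG30340 (r = 0.993). For Pvr they were CG2574, the embryonic kinase gene png and CG16888, each with r = 0.999. For the leading Pvf3 probe set they were CG13566 (r = 0.963), Adck5 (r = 0.963) and Vlet (r = 0.954).

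**Figure D4:**
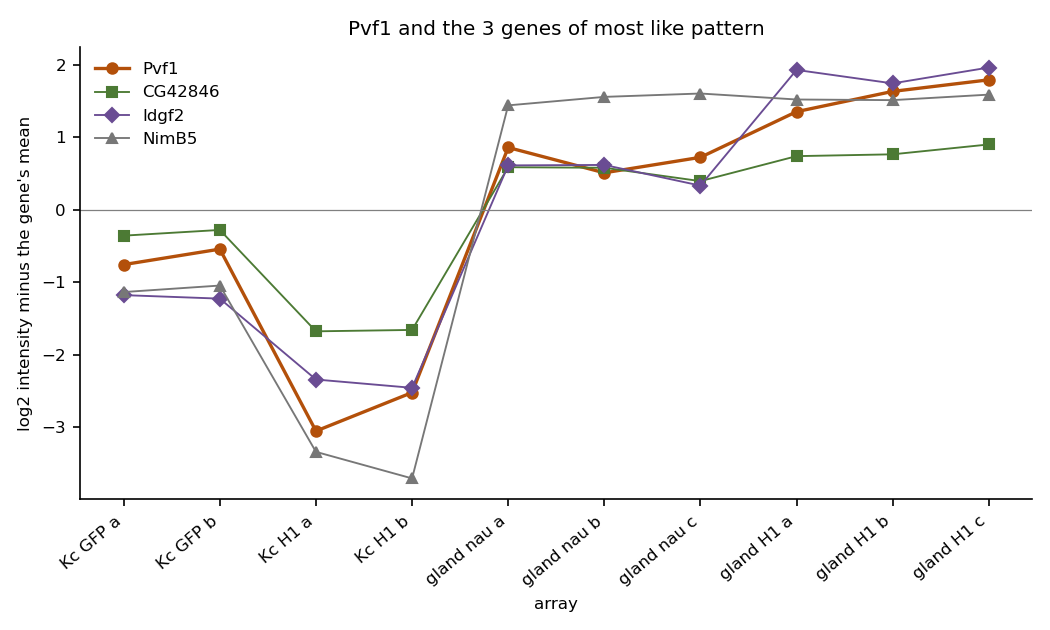
Log2 intensity of Pvf1, CG42846, Idgf2 and NimB5 on each of the 10 arrays after subtraction of the mean of each gene, with lines that join the values of a gene and imply no order in time. All 4 genes are lowest in the Kc H1 arrays, and Pvf1, CG42846 and Idgf2 are highest in the glands labelled H1 RNAi.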

How the data were processed

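Expression was measured on Affymetrix arrays of 10 samples in 4 groups taken from the sample titles. The deposited values are 1 linear intensity per probe set and array, and RMA is the only tool named per the submitters' processing notes, with no version or statement on joint normalization of cells and glands. They were transformed to log2 of the deposited intensity. The 183 control probe sets were left out, which left 18769. Of these 13647 carried 1 gene symbol, 402 several and 4720 none. A gene was represented by its probe set of highest mean. The number of arrays limits the precision.

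One linear model with 4 group means covered the 10 arrays (limma 3.58.1, lmFit and eBayes, under R 4.3.3), with Benjamini-Hochberg adjustment over 18769 probe sets and a threshold of 0.05. The fit was tested on simulated data, but no outcome is given here. No conclusion about the differing spread of Kc and gland arrays is drawn from that test. Background was the 95th percentile of 17 Tag probe sets. Members, gene lists and tests were chosen with earlier results of these data known. Named genes were the members, up to 6 called genes per list and contrast with the largest differences, 3 measured neighbours on each side and the 3 genes of most like pattern; further list genes named, and uncalled genes given for comparison, were chosen after their values were seen. Alternatives were each array left out, the replicate letters as a block, each system alone, trended robust eBayes, a background filter, and quantile or median scaling, and every probe set of a gene.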

Additional observations from a re-analysis of the deposited data

Results flagged for a closer look

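Pvf1 drew attention because every H1 array of Kc cells lay below the GFP arrays (log2 difference -2.14) and every array labelled H1 RNAi of glands lay above those labelled nau RNAi (0.90). The difference between these effects was not tested, since both contrasts served to choose the gene. The Egfr ligand gene grk was lower in Kc cells and higher in glands, and the difference of its effects was 2.52 on the log2 scale (limma adjusted p = 1.58e-05, at most 0.000244 when 1 array was left out).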

How the results depend on the processing

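With 1 array left out, the number of probe sets called in Kc cells ranged from 274 to 916 (771 with all arrays, and 274 to 316 without any 1 of the Kc arrays) and the number of pathway genes called there from 1 to 4 (3 with all arrays). With Kc cells fitted alone these were 2152 and 8. For the difference between systems, the number of pathway genes ranged from 10 to 19 (17 with all arrays). With the replicate letters as a block, 447 probe sets were called in Kc cells, and the block removed the Kc call among RAS and MAPK genes (0 against 1) and a gland call among RAC and SRC effectors (1 against 2). For the difference between systems it left 1 of 2 RAS and MAPK calls and 0 of 1 RAC and SRC calls. Whether the letters pair the arrays is not known, and the deviations from the group means cannot settle it. The correlation r of deviations between same-letter arrays was -0.0032 for Kc cells and -0.072, 0.089 and 0.066 for the 3 gland letters. Between gland arrays of different letters it ran from -0.137 to 0.069. The control differences of Pvf1, Pvf2 and Pvr kept their direction under all 15 alternatives. The leading Pvf3 probe set ranged from 0.22 to 0.51 there with 1 array left out. Under quantile or median scaling Pvf1 stayed at -2.16 to -1.95 in Kc cells and 0.81 to 0.84 in glands. Signal near background limits every statement on Pvf3.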
